A study of Mus musculus with 39 samples.

Results

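A group of 9 genes of the creatine cycle and of glycerol handling was followed in RNA of mouse brown fat: Gatm, Gamt, Slc6a8, Ckb, Ckmt1 and Ckmt2 for creatine, and Aqp7, Gpd1 and Gpd2 for glycerol. They were picked by gene symbol, as 9 of 29411 different symbol entries in the deposited value table, and 13 probes carried their names. All 13 probes passed the filter on dim probes, as did 34043 probes of 24723 genes in all. Ucp1, the uncoupling protein of brown fat, was read beside them for comparison. A total of 39 one-colour Agilent arrays covered 5 diets, with 10 arrays of LFC, 11 of HFC and 6 each of HF5, HF20 and HF75. The HF20 Week 12 array is HF20 by its title and source, while its diet field reads high fat diet without KAL-1. There was 1 array per diet and time label, so that the arrays of a diet at different time labels were its only repeats.

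The mice were of the C57BL/6J strain and entered the diets when weaned, at 3 to 4 weeks of age, with 30 animals assigned to each diet. LFC was the normal diet, with 10% of its calories from fat. HFC was the high fat diet with added sucrose, with 60% of its calories from fat. HF5, HF20 and HF75 were the same high fat, high sucrose diet given with KAL-1, a plant formulation, at 5, 20 and 75 µg. LFC and HFC had the time labels Day 1, Day 6, Day 10, Day 14 and Week 0, and all 5 diets had Week 3 to Week 18, except that no LFC array carried Week 6. The sample labels describe brown infiltrating macrophages, given as stromal vascular cells (SVCs). The labels do not state whether an array holds 1 animal or a pool, and the design text speaks of 3 biological replicates, which these arrays do not resolve. The p-values of fits with diet and time label as terms measure the spread between arrays that is left once both are held. Permutation p-values of relations between genes come from shuffling values over the arrays.

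Brown fat makes heat in several ways. Ucp1 lets protons back into the mitochondrion without making ATP. In the creatine cycle, phosphocreatine is made near the mitochondrion by creatine kinases and is then broken down again, which turns ATP over. In the glycerol-3-phosphate shuttle, the cytosolic enzyme Gpd1 makes glycerol-3-phosphate, which carries electrons. The mitochondrial enzyme Gpd2 takes these electrons to the respiratory chain. Aqp7 is the channel by which glycerol crosses the membrane of fat cells.

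The 60-base array probes that the results turn on are given here 5′ to 3′, because 2 probes of 1 gene did not always tell the same story and a reader needs to know which letters were measured. Per the annotation in the value table, Gatm and Gpd2 lie on chromosome 2, Aqp7 on 4, Ucp1 on 8, Ckb on 12, Ckmt2 on 13 and Gpd1 on 15. No letters are marked in these probes.
Gatm: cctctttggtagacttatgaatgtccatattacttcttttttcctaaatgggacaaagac
Ckb, brighter: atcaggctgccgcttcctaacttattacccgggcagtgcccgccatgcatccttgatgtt
Ckmt2: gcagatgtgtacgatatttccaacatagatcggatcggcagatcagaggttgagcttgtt
Aqp7: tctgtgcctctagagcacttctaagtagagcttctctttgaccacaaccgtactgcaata
Gpd1, brighter: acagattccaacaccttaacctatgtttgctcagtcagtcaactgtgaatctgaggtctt
Gpd1, dimmer: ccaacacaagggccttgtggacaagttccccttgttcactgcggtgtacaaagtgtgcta
Gpd2, brighter: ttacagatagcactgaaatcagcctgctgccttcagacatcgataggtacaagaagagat
Gpd2, dimmer: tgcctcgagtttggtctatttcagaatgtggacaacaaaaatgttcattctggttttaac
Ucp1, brighter: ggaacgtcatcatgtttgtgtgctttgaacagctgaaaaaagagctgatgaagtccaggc
Ucp1, dimmer: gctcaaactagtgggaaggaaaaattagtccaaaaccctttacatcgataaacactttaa

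Each value below is the log2 intensity of a spot minus the 75th percentile of log2 intensity on the same array, so that 0 is a spot at that percentile and a step of 1 is a doubling. A gene was read from its brightest probe unless stated. Levels of different probes are not on a common scale and are not set against each other. The RNA came from bulk tissue fractions, in which fewer cells of a type and less RNA per cell cannot be told apart.

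The arrays were not alike in cell makeup or in brightness. Cd68 and Emr1, which mark macrophages, were well above background on all 39 arrays, and so were Ucp1, Adipoq of fat cells and Myh4 and Acta1 of skeletal muscle. Ckm, also read for skeletal muscle, was well above background on 32 of the 39. For 9 of the arrays the sample title includes BA or BAT, whose meaning the labels do not give. Most of the other titles hold B-A or B_A in that place, and the rest hold B without A. The 75th percentile of intensity was 124 to 1289 on these 9 arrays, with a median of 852, and 18.1 to 3974 on the other 30, with a median of 81.1. On 3 arrays over 10% of spots were marked as nonuniform or as outliers, with 71.4% marked on the HF20 Week 15 array. The LFC Day 10 and HFC Week 12 arrays stood apart, the second also because its column in the value table departs from its scanner file, with Ucp1 at -3.16 and -3.18 against 1.48 to 8.82 on the other arrays, and with a mean of the mesothelial markers at 1.53 and 1.41.

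**Figure D1:**
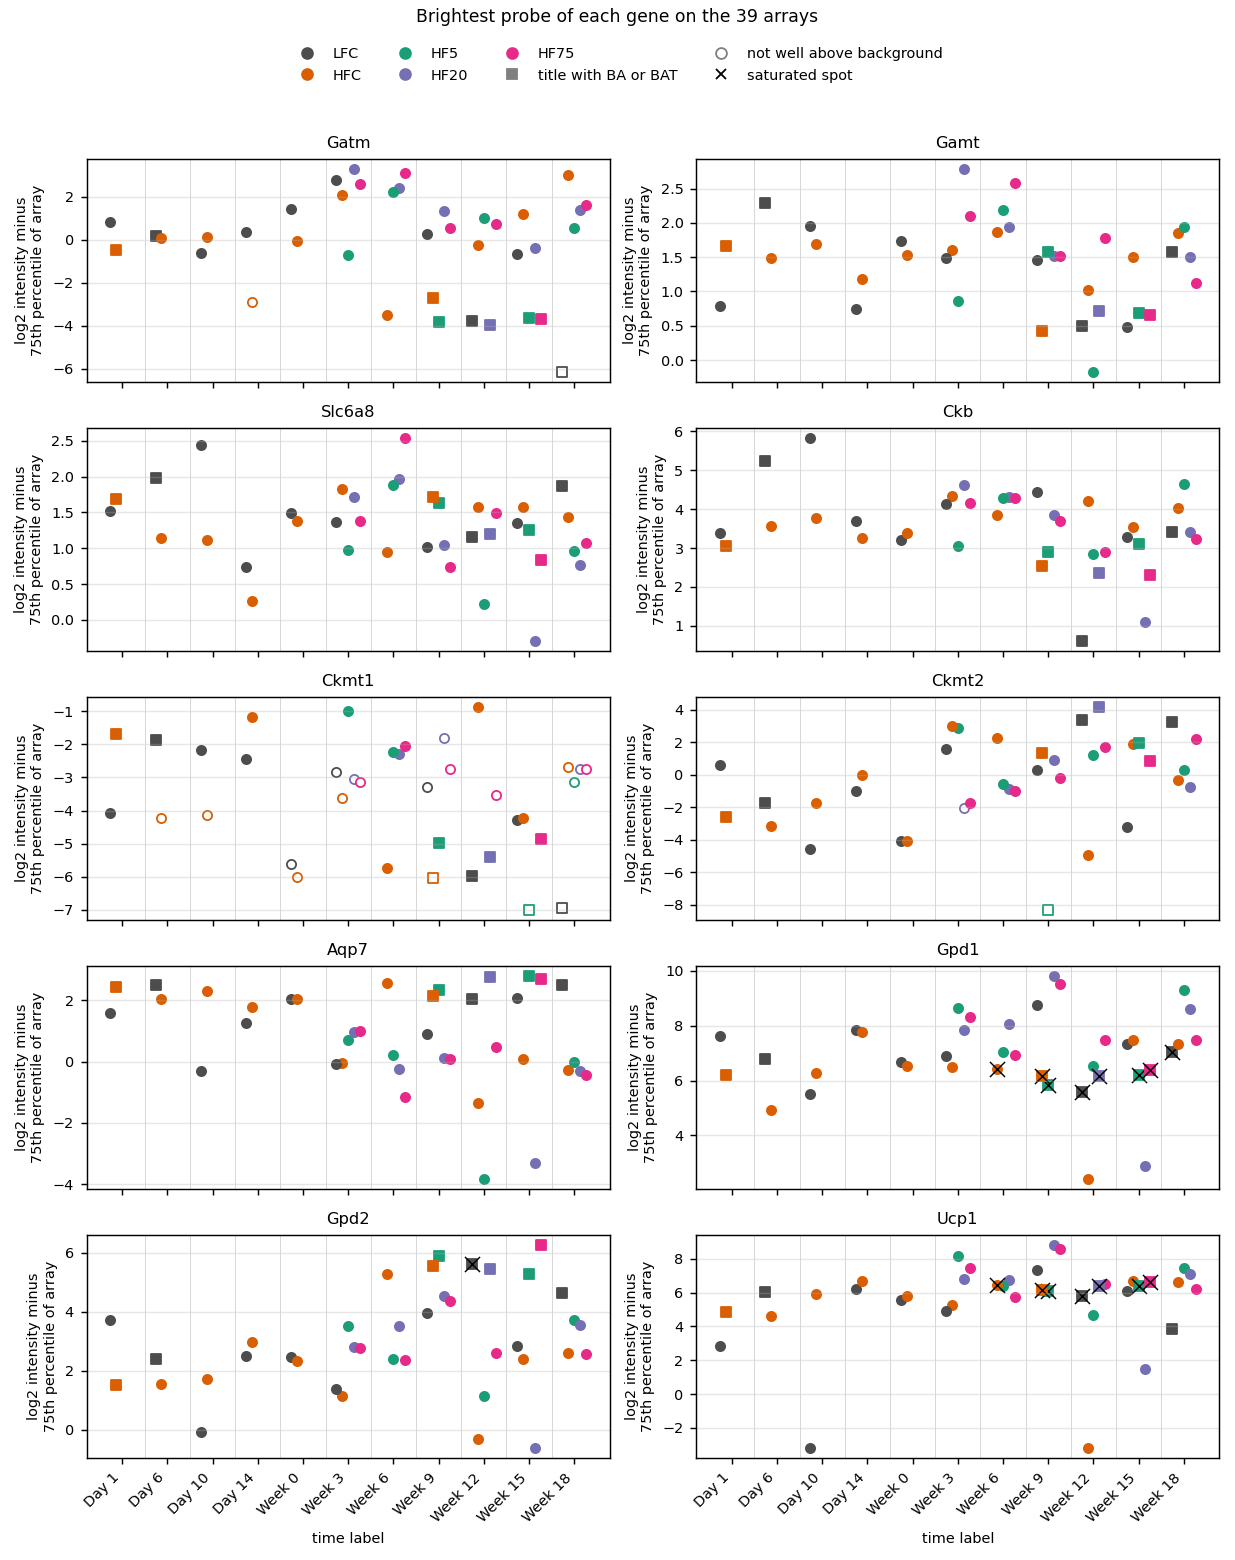
Log2 intensity relative to the 75th percentile of the array (vertical axis) of the 9 genes and Ucp1 at each time label (horizontal axis), 1 point per array, coloured by diet. Squares are the 9 arrays with BA or BAT in the title, open points were not well above background and crosses are saturated spots. Gatm lies between -2.70 and -6.15 on the 7 titled arrays from Week 9 on, and Gpd2 lies between 4.64 and 6.27 on them.

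Gatm makes guanidinoacetate, the first product on the way to creatine. Its values ran from -6.15 through a median of 0.22 to 2.79 in LFC, from -3.51 through -0.04 to 3.02 in HFC, from -3.80 through -0.06 to 2.25 in HF5, from -3.95 through 1.37 to 3.29 in HF20 and from -3.68 through 1.19 to 3.12 in HF75. Every diet held both high and low arrays, and the 5 ranges overlapped. The array low in each diet was LFC Week 18, HFC Week 6, HF5 Week 9, HF20 Week 12 and HF75 Week 15, and 4 of these 5 carried the titled token. The spot was not well above background on the LFC Week 18 and HFC Day 14 arrays.

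Gamt adds the methyl group that completes creatine. Its range over all arrays was narrow, from -0.17 on HF5 Week 12 to 2.78 on HF20 Week 3, with a median of 1.52 and an SD of 0.64 (n = 38). The median was 1.47 in LFC, 1.53 in HFC, 1.21 in HF5, 1.52 in HF20 and 1.65 in HF75, and the ranges of the 5 diets overlapped. The second Gamt probe followed the first, with a Pearson r of 0.892 over 38 arrays.

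Slc6a8 carries creatine into the cell. It ranged from -0.29 on HF20 Week 15 to 2.54 on HF75 Week 6 and had an SD of 0.57 (n = 39). Its median was 1.43 in LFC, 1.44 in HFC, 1.12 in HF5, 1.13 in HF20 and 1.22 in HF75. The largest gap between these medians was below the SD within any of the 5 diets, which ran from 0.45 in HFC to 0.80 in HF20.

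Ckb is the cytosolic creatine kinase best known from brain and is also found in brown fat. It ran from 0.61 through 3.55 to 5.83 in LFC, from 2.54 through 3.56 to 4.34 in HFC, from 2.85 through 3.09 to 4.65 in HF5, from 1.104 through 3.62 to 4.63 in HF20 and from 2.31 through 3.46 to 4.30 in HF75. The 2 lowest values lay on LFC Week 12 and HF20 Week 15, and the highest on LFC Day 10. The second Ckb probe had an r of 0.802 with the first (n = 39).

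Ckmt1 is the mitochondrial creatine kinase of many tissues. Its probe was well above background on 20 of 39 arrays, so that its values carry less weight than those of the other genes. It ran from -7.00 on HF5 Week 15 to -0.87 on HFC Week 12 with a median of -3.15 (n = 37), and its spot was marked and dropped on the HF5 Week 12 and HF20 Week 15 arrays.

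Ckmt2 is the mitochondrial creatine kinase of heart and skeletal muscle, and it varied the most of the 9 genes. Its values ran from -4.60 through -0.34 to 3.35 in LFC, from -4.95 through -0.31 to 3.02 in HFC, from -8.33 through 0.75 to 2.88 in HF5, from -2.04 through -0.78 to 4.17 in HF20 (n = 5) and from -1.73 through 0.33 to 2.19 in HF75. Within LFC and HFC alone it was between -4.60 and 0.59 at the 10 arrays of Day 1 to Week 0 and between -4.95 and 3.35 at the 11 arrays of Week 3 to Week 18, so the early and late arrays overlapped. The spots on HF5 Week 9 and HF20 Week 3, the lowest arrays of HF5 and HF20, were not well above background.

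Aqp7 ran from -0.30 through 1.82 to 2.52 in LFC, from -1.35 through 2.04 to 2.57 in HFC, from -3.83 through 0.46 to 2.80 in HF5, from -3.33 through -0.07 to 2.78 in HF20 and from -1.15 through 0.28 to 2.70 in HF75. The top of the range was alike in all 5 diets. The lowest arrays, HF5 Week 12 and HF20 Week 15, were both among the 3 with over 10% of spots marked.

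Gpd1 ran from 5.50 through 6.98 to 8.75 in LFC, from 2.42 through 6.44 to 7.78 in HFC, from 5.83 through 6.78 to 9.32 in HF5, from 2.87 through 7.95 to 9.81 in HF20 and from 6.37 through 7.48 to 9.53 in HF75. HFC had the lowest median of the 5 diets and HF20 the highest, and the ranges overlapped. Its low values lay on HFC Week 12, where Ucp1 was also low, and on HF20 Week 15. The brighter Gpd1 probe was saturated on 8 arrays, 7 of them titled, so its values there are lower bounds.

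Gpd2 ran from -0.07 through 2.66 to 5.63 in LFC, from -0.32 through 2.32 to 5.57 in HFC, from 1.15 through 3.61 to 5.89 in HF5, from -0.61 through 3.53 to 5.44 in HF20 and from 2.36 through 2.69 to 6.27 in HF75. The medians stood in the order HFC, LFC, HF75, HF20 and HF5. Neighbours in that order differed by less than the SD within a diet, which was 1.55 to 2.09. The 2 Gpd2 probes moved together, with an r of 0.981 over 39 arrays.

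The first question was whether the high fat, high sucrose diet changed these genes against the normal diet. No gene of the 9 passed an adjusted p under 0.05, and none of all 34043 probes did, a share of 0.0%. The HFC minus LFC difference was 0.15 for Gatm (SE 1.01), 0.08 for Gamt (SE 0.27), -0.22 for Slc6a8 (SE 0.27), -0.19 for Ckb (SE 0.40), 0.27 for Ckmt1 (SE 0.70) and -0.32 for Ckmt2 (SE 1.15). The second Ckb probe differed the other way, by 0.21 (SE 0.37). The intervals for Gamt and Slc6a8 were the tightest, at 95% from -0.48 to 0.63 and from -0.78 to 0.33. The interval for Ckmt2 was the widest, from -2.67 to 2.04. Among the glycerol genes the difference was -0.16 for Aqp7 (SE 0.73), -0.82 for Gpd1 (SE 0.58, and -0.98 with SE 0.78 on its dimmer probe) and -0.57 for Gpd2 (SE 0.73), beside 0.50 for Ucp1 (SE 0.99). The 9 genes had a median difference of -0.19, with 3 higher and 6 lower in HFC, beside a median of 0.05 over all probes. At an unadjusted p under 0.05 none of the 9 passed, against 2.82% of all probes, in limma with Benjamini-Hochberg adjustment.

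The single time labels showed how far the diet pair varied. On the brighter Gpd1 probe HFC was lower at 7 of 10 time labels, but at 3 of the 10 a spot was saturated, and on the dimmer probe HFC was lower at 6 and higher at 4, from -7.01 to 1.47. Gpd2 was lower in HFC at 7 of 10 time labels, from -5.96 to 1.78. Gatm differed by -3.26 to 9.17 and Ckmt2 by -8.30 to 5.13, so a single time label could point either way. Without the HFC Week 12 array the difference was -0.52 for Gpd1 (SE 0.56), -0.21 for Gpd2 (SE 0.71) and 0.49 for Ckmt2 (SE 1.01), and Ckmt2, Gatm, Ckmt1 and Aqp7 changed sign. At the 6 time labels whose LFC and HFC arrays were scanned on the same date, Gpd1 differed by -0.36 (SE 0.52) and Gpd2 by -1.05 (SE 0.89), neither called.

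The next question was whether KAL-1 changed the genes when added to the high fat, high sucrose diet. The 3 comparisons share the HFC arrays, so their values are set side by side without counting them as separate support. No gene of the 9 passed the adjusted threshold in any of them, nor did any probe of the 34043, with 0.0% called for each dose. Gpd1 was above HFC by 1.09 at HF5 (SE 0.72), 1.05 at HF20 (SE 0.72) and 1.51 at HF75 (SE 0.72). The HF75 difference had an unadjusted p of 0.0446 and an adjusted p of 1.0 in limma, with a 95% interval from 0.04 to 2.99. Gpd1 was the only one of the 9 genes under an unadjusted 0.05 at HF75, where 3.55% of all probes were, and none of the 9 was at HF5 or HF20, where 1.46% and 2.66% of probes were. The brighter Gpd1 probe behind these values was saturated on the HFC Week 6 and Week 9 arrays and on arrays of each dose, so the differences are not exact. The dimmer Gpd1 probe, which was not saturated, differed from HFC by 0.83 at HF5 (SE 0.97), 1.55 at HF20 (SE 1.03) and 0.49 at HF75 (SE 0.97), none called. It had no value on the HF20 Week 15 array. At HF75 the dimmer probe was higher at 3 of 6 time labels and lower at 3, from -3.71 to 4.55.

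Without the HF20 Week 12 array, whose labels conflict, HF20 minus HFC was 2.11 for Gatm (SE 1.28), -1.72 for Aqp7 (SE 0.88), -1.32 for Ckmt2 (SE 1.62) and -0.42 for Gpd2 (SE 0.91), where Gpd2 changed sign and none was called. None of the other 8 genes was under an unadjusted 0.05 for any dose. Gatm was at -0.18 in HF5, 1.23 in HF20 and 1.37 in HF75, each with an SE of 1.26. Gpd2 was at 0.72, 0.27 and 0.55, each with an SE of 0.90, and Aqp7 at -0.52, -0.89 and -0.44, each with an SE of 0.91. Ckb was at 0.00, -0.20 and -0.04 (SE 0.49), with 95% intervals within -1.21 and 1.01, the tightest of the 3 kinases. The second Ckb probe was at -0.41, -0.50 and -0.48, each with an SE of 0.46, none called. Ucp1 itself differed from HFC by 1.21, 0.90 and 1.53 on its brighter probe, each with an SE of 1.22, which was saturated on the same 2 HFC arrays. Its dimmer probe differed by 0.30 (SE 0.83), 0.14 (SE 0.89) and -0.01 (SE 0.83). That dimmer probe had no value on the HFC Week 12 and HF20 Week 15 arrays, so the Ucp1 probes were not read on the same arrays. The parts of saturation and of the missing arrays in this gap were not tested. Without the HFC Week 12 array the Gpd1 differences were 0.66, 0.63 and 1.09, each with an SE of 0.70, and those of Gpd2 were 0.20, -0.24 and 0.04, where the second changed sign.

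**Figure D2:**
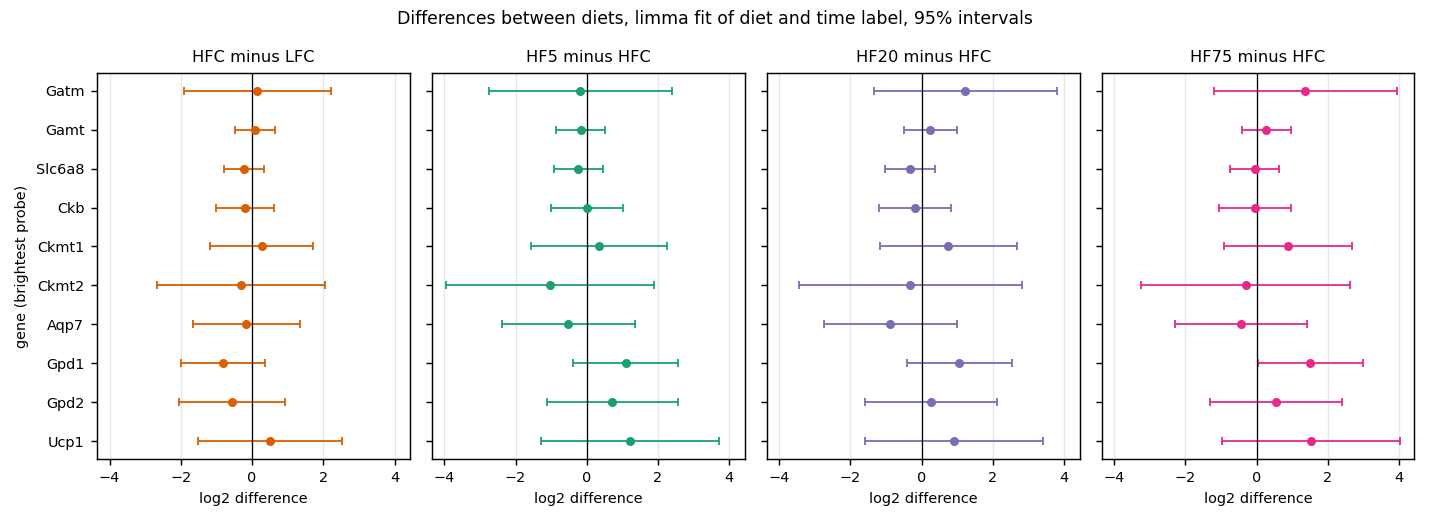
Log2 difference between diets (horizontal axis) for each gene (vertical axis) from the limma fit of diet and time label over 39 arrays, with 95% intervals as bars. Of the 36 intervals of the 9 genes, that of Gpd1 for HF75 minus HFC, from 0.04 to 2.99, is the one that leaves out 0. It comes from the brighter Gpd1 probe, which was saturated on 8 arrays, and the interval of the dimmer probe is -1.50 to 2.47.

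A slope over the dose steps, from HFC through HF5 and HF20 to HF75 in the 24 arrays of Week 3 to Week 18, was 0.49 per step for Gpd1 (SE 0.26, adjusted p = 0.778) and 0.62 for Ucp1 (SE 0.37, limma adjusted p = 0.837). Both slopes rest on probes with saturated spots, and the dimmer probes gave 0.25 for Gpd1 (SE 0.32) and 0.12 for Ucp1 (SE 0.21). Both dimmer probes lacked a value on HF20 Week 15, and that of Ucp1 also on HFC Week 12. The parts of saturation and of these missing arrays were not tested. The adjusted p of the 9 genes was 0.778 to 0.999, and 0.0% of probes passed. None of the 9 was under an unadjusted 0.05, against 7.04% of all probes. The slope of Gatm was 0.40 (SE 0.38), and those of the other 7 genes lay between -0.12 and 0.23. Without the HFC Week 12 array the Gpd1 slope was 0.30 (SE 0.25).

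Time was the third axis of the design. The change of the HFC minus LFC difference from Day 1 to Week 0 against Week 3 to Week 18 was tested in 20 arrays of both diets, and no gene and 0.0% of probes passed. Aqp7 had the lowest unadjusted p of the 9, with a difference of 0.71 at the early labels (SE 0.47) and -1.39 at the late ones (SE 0.78). The change was -2.10 (SE 0.95, unadjusted p = 0.0494, adjusted p = 1.0 in limma), where 2.35% of all probes were under an unadjusted 0.05. Without the HFC Week 12 array it was -1.59 (SE 0.93). At Day 10, whose LFC array stood apart, the Aqp7 difference was 2.61, and at the other early labels it was -0.45 to 0.86. In LFC and HFC together, Ckmt2 had a slope of 0.46 per doubling of days (SE 0.25) and Gpd2 one of 0.23 (SE 0.16), with limma adjusted p of 0.467 and 0.539, and 0.0% of probes passed. None of the 9 genes was under an unadjusted 0.05 for time, against 11.9% of all probes.

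The titles made the clearest split in these genes. The 9 arrays with BA or BAT in the title were compared with the other 30 in a fit that held diet and time label, and 4 of the 9 genes passed: Aqp7 and Gpd2 were higher, and Gatm and Ckmt1 were lower. Over all probes 52.4% passed, 20.5% higher and 31.8% lower, so that 4 of 9 is near the background. At an unadjusted p under 0.05 the same 4 genes passed, against 58.7% of all probes. Titles and brightness of the array went together, and the part of brightness in these differences was not tested.

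Aqp7 showed the titled arrays as a tight group. It lay between 2.06 and 2.80 on the 9 titled arrays, with a median of 2.49, and between -3.83 and 2.57 on the others, with a median of 0.17. The groups overlapped, since untitled arrays such as HFC Week 6 reached the titled range. The difference was 2.55 (SE 0.55, limma adjusted p = 0.000781), a 5.85-fold higher level. The lowest difference for Aqp7 under any other setting was 1.66, with the 3 arrays of over 10% marked spots left out.

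Gpd2 lay between 1.51 and 6.27 on the titled arrays, with a median of 5.44, and between -0.61 and 5.28 on the others, with a median of 2.58. It was 2.33 higher (SE 0.58, limma adjusted p = 0.0021), and its second probe was 2.88 higher (SE 0.62, adjusted p = 0.000716). The brighter Gpd2 probe was saturated on LFC Week 12, a titled array, and the second probe on none. The titled HFC Day 1 and LFC Day 6 arrays, at 1.51 and 2.40, lay within the range of the others, while HFC Week 6, which has no such token, lay at 5.28. Without the Week 12 arrays the difference fell to 1.57 (adjusted p = 0.0671) and was no longer called.

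Gatm lay between -6.15 and 0.18 on the titled arrays, with a median of -3.68, and between -3.51 and 3.29 on the others, with a median of 0.79. It was lower by 14.3-fold (log2 -3.83, SE 0.70, limma adjusted p = 0.000248). HFC Day 1 and LFC Day 6, at -0.45 and 0.18, again lay with the untitled arrays, and HFC Week 6, at -3.51, with the titled ones.

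Ckmt1 differed by -1.93 on the titled arrays (SE 0.63, adjusted p = 0.0137 in limma). The size is uncertain, since its probe was well above background on 6 of these 9 arrays and on 20 of all 39, and no fold is given. It was not called after quantile normalization, at -0.61 (adjusted p = 0.402), nor without the arrays of Week 9, 12, 15 or 18, at -1.60, -1.49, -1.83 and -1.63. Ckb, Ckmt2, Gamt and Slc6a8 did not pass, with differences of -0.67 (SE 0.37), 0.88 (SE 1.15), -0.03 (SE 0.27) and 0.42 (SE 0.26). Under other settings Slc6a8 was called higher after normexp, at 1.11 (limma adjusted p = 7.45e-05). Gpd1 was called lower without the 3 arrays of over 10% marked spots, at -1.45 (adjusted p = 0.0041). Ckb was called lower after quantile normalization and without Day 6, at -1.13 and -0.89 (adjusted p = 0.0125 and 0.0428). Over the settings the Ckb difference ran from -1.13 to 0.80. The second Ckb probe was at 0.18 in the main fit (SE 0.37, limma adjusted p = 0.692). The median of all probes was -0.30 in this comparison, 0.23 after quantile normalization and -1.30 after another background correction, so that differences of that size depend on the scaling.

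**Figure D3:**
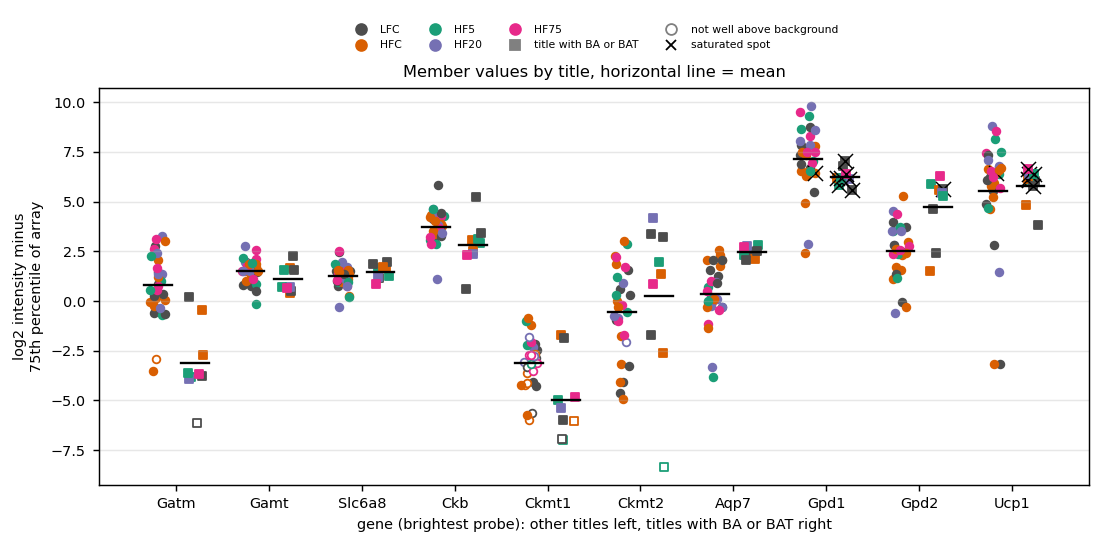
Log2 intensity relative to the 75th percentile of the array (vertical axis) for each gene (horizontal axis), with the 30 other arrays left and the 9 arrays titled BA or BAT right. Each point is an array and each line the mean, and levels of different genes are not on a common scale. The titled arrays lie between 2.06 and 2.80 for Aqp7, and their median is -3.68 for Gatm.

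Gpd1 gave opposite signs on its 2 probes in the titled arrays. The brighter probe differed by -0.75 (SE 0.56, adjusted p = 0.263), and the dimmer probe was 2.72 higher (SE 0.59, limma adjusted p = 0.000854). The brighter probe was saturated on 8 arrays, namely HFC Week 6, HF5 Week 9, HFC Week 9, LFC Week 12, HF20 Week 12, HF5 Week 15, HF75 Week 15 and LFC Week 18. On these 8 it lay between 5.58 and 7.06, while the dimmer probe lay between 2.06 and 3.29. Over 38 arrays the 2 probes had an r of 0.282, and over the 30 arrays with no saturated spot an r of 0.854. The brighter Ucp1 probe was saturated on 7 of the same 8 arrays, and the 2 Ucp1 probes had an r of 0.782 over 37 arrays and 0.876 over 30.

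**Figure D4:**
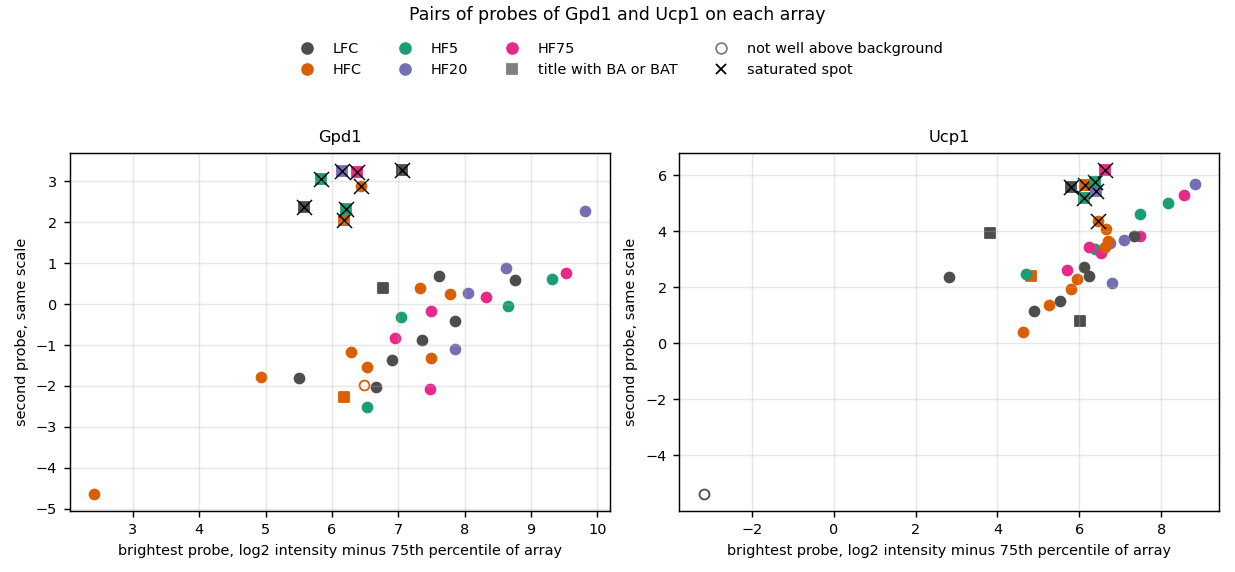
The brighter probe (horizontal axis) against the dimmer probe (vertical axis) of Gpd1 and of Ucp1, both as log2 intensity relative to the 75th percentile of the array, 1 point per array. The crossed points are saturated spots, and for Gpd1 these 8 arrays stand at 2.06 to 3.29 on the dimmer probe while the brighter probe stays at 5.58 to 7.06.

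The same 8 arrays shared their values of other genes. Gatm lay between -2.70 and -6.15 on them, Gpd2 between 4.64 and 6.27 and Aqp7 between 2.06 and 2.80. The HFC Week 6 array is the only one of the 8 without BA or BAT in its title, which holds B-A. Brightness moved with several genes over the 39 arrays: the r with the log2 of the 75th percentile was -0.799 for Gpd1, -0.614 for Gatm, -0.563 for Ckb, -0.553 for Ckmt1 (n = 37) and -0.461 for Ucp1, and between -0.371 and 0.167 for the other 5 genes. This percentile is also what was subtracted from each value, and its part in the levels was not tested.

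The 9 genes were then read beside Ucp1, array by array, with 9 relations tested by permutation and adjusted together. Gpd1 was higher on arrays with higher Ucp1, with a Pearson r of 0.742 (permutation p = 1e-05, the smallest they can give, adjusted p = 9e-05) and a Spearman rho of 0.745 (adjusted p = 9e-05). Gpd2 did too, with an r of 0.589 (permutation p = 6e-05, adjusted p = 0.00027) and a rho of 0.532 (adjusted p = 0.0029). Ckmt2 had an r of 0.36 (permutation p = 0.028, adjusted p = 0.085), and the other 6 genes lay between -0.212 and 0.284 and did not pass. Slc6a8, at -0.212 here, passed downwards without the 3 arrays of over 10% marked spots, with an r of -0.529 (permutation adjusted p = 0.004) and a rho of -0.5 (adjusted p = 0.01). Points of 1 array share its scaling, and Gpd1 and Ucp1 both carry saturated spots.

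The same relations were read with these arrays left out. Without the 2 arrays farthest from the median of Ucp1, r was 0.748 for Gpd1 and 0.439 for Gpd2 (permutation p = 0.0065, adjusted p = 0.029). Ckmt2 went to 0.042 there. After removing diet and time label from both values, r was 0.765 for Gpd1 and 0.564 for Gpd2. The rho of Gpd2 after that removal was 0.355 (permutation adjusted p = 0.081) and did not pass. On the arrays without a saturated spot r was 0.815 for Gpd1 (n = 31) and 0.728 for Gpd2 (n = 32). On the 30 arrays without the title token r was 0.809 and 0.768. Ckmt2 passed there too, at 0.51 (permutation adjusted p = 0.011), and after removing diet and time label Ckmt2 and Aqp7 passed by r, at 0.507 and 0.491, but no rho of Ckmt2 or Aqp7 passed in these settings. Read against the dimmer Ucp1 probe the 2 genes changed places: Gpd2 had an r of 0.827 (n = 37) and Gpd1 an r of 0.334 (permutation p = 0.043, adjusted p = 0.056). Gpd1 was still read from its brighter probe, saturated on 8 arrays, and its dimmer probe was not set against Ucp1. The part of saturation in this change was therefore not tested. Against the dimmer Ucp1 probe Ckb, Slc6a8 and Gatm passed downwards, at -0.601, -0.434 and -0.368, and Ckmt2 upwards, at 0.435.

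The genes were also read beside lists of cell type markers. These 36 relations, of 9 genes with 4 lists, were chosen after values were seen, and the brown fat cell list holds Ucp1. The 2 farthest arrays left out here were not the same 2 for every list, nor always those set by Ucp1 above. Ckmt2 followed the mean of 11 skeletal muscle genes, with an r of 0.971 and a rho of 0.966 (n = 38, permutation adjusted p = 0.00012 for both), and an r of 0.966 without the 2 farthest arrays. The 3 genes most like Ckmt2 among 13478 genes were Tnnt3 and Tnni2, subunits of fast muscle troponin, and Cox6a2, a muscle form of a cytochrome oxidase subunit, with r of 0.983, 0.965 and 0.974. Tnnt3 and Tnni2 are themselves in the muscle list, so their likeness is not separate from it. The muscle list ran from -3.02 on HF5 Week 9 to 5.37 on HF20 Week 12, the same arrays that held the lowest and highest Ckmt2, and the part of muscle in Ckmt2 was not tested further.

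Gpd2 followed the mean of 12 brown fat cell genes, with an r of 0.883 and a rho of 0.908 (permutation adjusted p = 0.00012 for both), and 0.884 without the 2 farthest arrays. It also followed the general fat cell list, with an r of 0.821 and a rho of 0.831, and an r of 0.805 without the 2 farthest arrays. Its 3 most similar genes were Dlat and Pdhx, both of the pyruvate dehydrogenase complex, and Nudt7, with r of 0.969, 0.967 and 0.968. Aqp7 had an r of 0.582 with the general fat cell list (permutation adjusted p = 0.0013), a rho of 0.504 (adjusted p = 0.0083) and an r of 0.445 without the 2 farthest arrays. Its most similar genes were Tmem77, Cd36, a fatty acid carrier, and 2210010N04Rik, at 0.923, 0.913 and 0.904. Gpd1 was most like Chchd10, Acaa2, an enzyme of fatty acid oxidation, and LOC638710, at 0.937, 0.923 and 0.892. Gpd1 itself had an r of 0.525 with the brown fat cell list (permutation adjusted p = 0.0047, rho 0.295 with adjusted p = 0.13), which was 0.306 without the 2 farthest arrays. With the macrophage list its r was 0.203 (permutation adjusted p = 0.29) and its rho 0.478 (adjusted p = 0.011), and r was 0.494 without the 2 farthest arrays. The remaining relations of Gpd1, Ckmt2, Ckmt1, Ckb, Aqp7, Gatm and Gpd2 that passed by r lay between -0.438 and 0.505.

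Gatm ran the other way. Its r was -0.559 with the general fat cell list (permutation adjusted p = 0.0015), with a rho of -0.475 (adjusted p = 0.011) and an r of -0.582 without the 2 farthest arrays. With the macrophage list its r was 0.463 (permutation adjusted p = 0.013) and its rho 0.443 (adjusted p = 0.02), and r was 0.473 without the 2 farthest arrays. Ckmt1 had an r of 0.52 with the macrophage list (permutation adjusted p = 0.0047, n = 37) and a rho of 0.443 (adjusted p = 0.023). Ckb had an r of 0.406 (permutation adjusted p = 0.026) and a rho of 0.391 (adjusted p = 0.034). Both r went to 0.417 and 0.29 without the 2 farthest arrays. Gatm was most like Plekha4, Lgi4 and Dhrs2, at 0.944, 0.939 and 0.928, and Ckb most like Gm6949, LOC675028 and Gm12892, at 0.973, 0.905 and 0.868. Gamt and Slc6a8 passed with none of the 4 lists, and their closest genes, Clip3 and Kank2, had r of 0.769 and 0.88. For Ckmt1 the closest was Slc6a17, at 0.844. No probe of these genes shared a run of over 8 bases with that of a gene most like it.

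**Figure D5:**
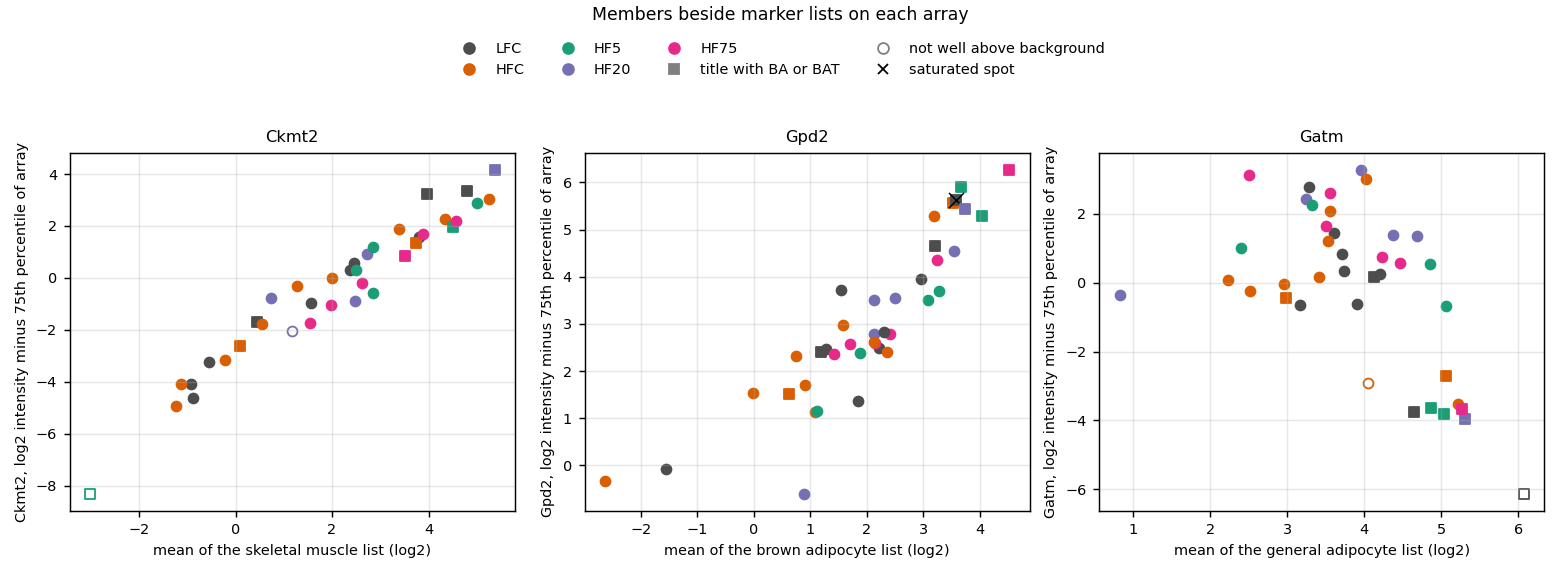
Ckmt2, Gpd2 and Gatm (vertical axes, log2 intensity relative to the 75th percentile of the array) against the mean of a marker list on the same array (horizontal axes, log2), 1 point per array. Ckmt2 lies along the skeletal muscle list with r of 0.971, Gpd2 along the brown fat cell list with r of 0.883, and Gatm runs down the general fat cell list with r of -0.559.

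The 9 genes were not 1 block among themselves. Gamt and Ckb had an r of 0.675 and Gamt and Slc6a8 of 0.546, while Gatm had -0.551 with both Aqp7 and Gpd2, and Ckmt1 had -0.649 with Aqp7. Gpd1 and Gpd2, the 2 arms of the shuttle, had an r of 0.39, and the brighter Gpd1 probe carries the saturated spots. These values describe 37 to 39 arrays that share their scaling.

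Other genes of the same pathways were read from lists. Of 6 measured genes near the creatine cycle, of 15 of glycerol and triglyceride handling and of 5 of calcium cycling, none was called between HFC and LFC or for any dose. The 3 with the largest diet difference near creatine were Mat2a and Ahcy of the methyl cycle, at -0.51 (SE 0.38) and 0.39 (SE 0.46), and Vdac1, a channel of the outer mitochondrial membrane, at -0.42 (SE 0.45). For glycerol they were Agpat2 and Lpin1, enzymes of triglyceride synthesis, at -1.51 (SE 0.84) and -0.81 (SE 0.73), and Gyk, glycerol kinase, at 0.85 (SE 0.63). For calcium cycling they were Ryr1 and Ryr2, calcium release channels, at 0.80 (SE 0.93) and 0.31 (SE 0.48), and Atp2a1, a calcium pump of muscle, at -0.69 (SE 1.27).

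The titled arrays differed more in these lists. Of the 15 glycerol genes 11 were called higher and 2 lower, with a median of 1.42, beside 20.5% of all probes higher. Agpat2 was 3.30 higher (SE 0.57, limma adjusted p = 0.000169), Lpin1 2.79 (SE 0.51, adjusted p = 0.000235) and Gyk 1.41 (SE 0.58, adjusted p = 0.0429). Of the 6 creatine neighbours 3 were called higher, among them Vdac1 at 1.29 (SE 0.37, limma adjusted p = 0.00575) and Mat2a at 0.84 (SE 0.34, adjusted p = 0.04), and Ahcy was at 0.35 (SE 0.46). Of the 5 calcium cycling genes 2 were called higher, among them Ryr2 at 1.23 (SE 0.42, limma adjusted p = 0.0164). Cell type lists moved on the same arrays, read against 20.5% of all probes higher and 31.8% lower. Called higher were 7 of 10 general fat cell genes (1 lower) and 6 of 12 brown fat cell genes. Called lower were 6 of 9 macrophage, 6 of 6 neutrophil, 5 of 5 erythroid and 4 of 4 B cell genes. So were 3 of 5 T cell, 3 of 5 fibroblast and 1 of 5 endothelial genes, and 2 of the 3 mesothelial genes tested, of 5 listed. None of the 11 muscle genes was called, and Ucp1 was 0.67 higher (SE 0.98), not called, on a probe saturated on 6 of the 9 titled arrays. The dimmer Ucp1 probe was 1.38 higher (SE 0.61, unadjusted p = 0.0315, limma adjusted p = 0.0582). It was saturated on the titled LFC Week 12 array and had no value on HFC Week 12 and HF20 Week 15. The part of cell makeup in the differences of Aqp7, Gpd2 and Gatm was not tested.

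Promoter letters are shown for Aqp7 and Gatm, which moved in opposite directions on the titled arrays. The windows run over 300 bases around a RefSeq transcript start (build GRCm38.p6). They were searched on both strands for AGGTCA, reverse complement TGACCT, the hexamer known as a core element of many nuclear receptor binding sites. The motif is in capitals, and both windows are printed on the minus strand of the genome, 5′ to 3′.
Aqp7, chr4:41047913-41048212: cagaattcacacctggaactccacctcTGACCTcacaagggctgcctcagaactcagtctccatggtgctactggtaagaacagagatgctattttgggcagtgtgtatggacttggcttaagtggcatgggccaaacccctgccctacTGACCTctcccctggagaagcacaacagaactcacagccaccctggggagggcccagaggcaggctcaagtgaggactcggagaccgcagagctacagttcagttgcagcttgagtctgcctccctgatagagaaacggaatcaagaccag
Gatm, chr2:122611228-122611527: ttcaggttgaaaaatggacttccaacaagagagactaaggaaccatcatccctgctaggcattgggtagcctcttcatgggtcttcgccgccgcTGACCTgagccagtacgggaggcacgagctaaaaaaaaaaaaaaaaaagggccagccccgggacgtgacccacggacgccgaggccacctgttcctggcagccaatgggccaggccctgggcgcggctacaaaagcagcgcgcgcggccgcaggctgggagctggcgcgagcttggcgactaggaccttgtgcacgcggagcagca

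The Aqp7 window holds the motif at -223 and -101 from the start, and the Gatm window holds it at -156. Of 11 windows that matched 8 of the 10 genes, Ucp1 among them, 5 hold it at least once, and 16.3% of 32851 promoter windows do. A match of these letters is a description and names no bound factor. The windows of a second Aqp7 start and of the first one overlap, and they share 1 of the matches.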

How the data were processed

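RNA of brown fat stromal vascular cells was measured on 39 one-colour arrays, grouped by diet and time label as title and source give them. Per the file headers, the deposited scanner files give the intensity of each spot, background-subtracted and detrended in Agilent Feature Extraction 10.5.1.1 (9.1 in the submitters' processing notes), with no normalization between arrays. The deposited value table holds log2 values that the authors shifted to the 75th percentile and set against the LFC array of the time label, and it served for gene symbols, annotation and probe letters.

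From the intensity, log2 minus the 75th percentile of the array was taken. Spots marked as nonuniform or as outliers were dropped, spots of a probe averaged, and a probe kept when well above background on at least 6 arrays. Arrays have no read depth: a median of 57.3% of spots was well above background (31.2% to 98.0%), and the number of arrays limits the precision.

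Differences were fitted over all probes with limma 3.58.1 in R 4.3.3 (statmod 1.5.0), with diet and time label as terms, with calls at a Benjamini-Hochberg adjusted p under 0.05. The dose slope, the late against early change and the slope over days used subsets of arrays, assuming that weeks count from Day 14. Relations between genes used 100000 permutations (Python 3.11.15, numpy 2.4.6, pandas 2.3.3, figures by matplotlib 3.10.9). The fit was tested on simulated data. Alternatives were other normalizations, filters, weights, terms and left-out arrays. Leaving out HFC Week 12 or saturated arrays and the dimmer Ucp1 probe were added after the data were seen.

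The 9 genes and all lists were chosen with earlier results of these data known. Named genes were the 9 and Ucp1, the 3 of each pathway list with the largest HFC minus LFC difference, and the 3 most correlated genes among those well above background on at least 30 arrays. Other listed genes were counted only.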

Additional observations from a re-analysis of the deposited data

Results flagged for a closer look

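In LFC, HF5, HF20 and HF75, 40 groups of arrays were checked for an array far from the rest, and chance alone gives about 1 in 20. HFC, with 11 arrays, was not checked, since the rule takes groups of at most 10. In LFC, Ckb on the Week 12 array was at 0.61, and the nearest other array at 3.20, a gap of 0.496 of the range of 10 arrays. In HF5, Ckmt2 on the Week 9 array was at -8.33, a gap of 0.692 of the range of 6 arrays, and the spot was not well above background. The skeletal muscle list was also lowest on that array, at -3.02.

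Ucp1 on the LFC Day 10 array was at -3.16, a gap of 0.571 of the range, and the mesothelial list there was at 1.53. Ucp1 on the HF20 Week 15 array was at 1.48, a gap of 0.672 of the range, and 71.4% of the spots of that array were marked.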

How the results depend on the processing

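None of the 9 genes was called for diet, dose or time under any alternative run. Signs were less stable: 37 of 258 gene values for HFC against LFC took the other direction, 33 for HF5, 23 for HF20 and 30 for HF75. Over all probes, HFC against LFC went from 0 calls to 2 after quantile normalization, 2 among probes well above background on all arrays, 24 with array weights, 2 without the titled arrays, 4 with the title as a term and 1 without the HF20 Week 12 array. HF75 against HFC went to 1 call with weights, 3 without the titled arrays, 1 with the title term and 5 at time labels of 1 scan date. For HF75 that last setting held only 2 time labels, Week 12 and Week 15, and so included the HFC Week 12 array. The dose slope went to 74 with the title term, and the slope over days to 4 after quantile normalization. The title comparison went from 17828 calls to 11125 after quantile normalization and 28430 after normexp. Leaving out each time label gave 0 to 1 calls for HFC against LFC, 0 to 7 for the dose slope, 0 to 1 for the slope over days and 0 for the others, and 10067 to 20348 probes and 2 to 5 of the 9 genes for the titles, with 10067 probes and 2 genes without Week 12 and 10312 probes without Week 9. The number of genes related to Ucp1 went from 2 to 4 after quantile normalization, after normexp and on residuals, and to 5 with the dimmer Ucp1 probe. The causes were not tested.

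Time label as a pairing block was part of the fit. The correlation of HFC and LFC deviations had a median of 0.159 and was over 0.1 at 5 of 10 time labels, so the labels do not all pair, and without the replicate block 0 of the 9 genes and 0 probes were called for each diet. Dim probes such as Ckmt1 are limited by signal over background.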
